A study of Bos taurus with 10 samples.

Results

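The glycolysis enzyme genes are a list of 10 genes (HK1, HK2, PFKL, PFKP, ALDOA, GAPDH, PGK1, ENO1, PKM and LDHA), found by their symbols in the deposited table of 12674 genes. Values were found for 8 of the 10, and GAPDH and LDHA were not analysed here. RNA was sequenced from intramuscular fat, the marbling fat between muscle fibres, and from subcutaneous fat, the fat under the skin, of adult female cattle (Bos taurus). All were Angus-cross heifers, no treatment is named, and each depot gave 5 libraries. The series asks why marbling fat is laid down late and slowly. Libraries with the same number in both depots are taken as the same animal. Each library is a whole piece of tissue, so fewer cells of a type and less RNA per cell cannot be told apart.

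Glycolysis splits glucose into pyruvate in the cytosol. Hexokinases trap glucose as its phosphate, phosphofructokinase commits it to the pathway, aldolase cuts the sugar, phosphoglycerate kinase and pyruvate kinase make ATP, and enolase stands between those last enzymes. Lactate dehydrogenase joins pyruvate with lactate. In fat cells the pathway supplies glycerol phosphate and carbon for fat, although cattle fat draws much of its carbon from acetate. Skeletal muscle is a tissue of high glycolytic capacity, and several steps have gene copies that differ in use between tissues.

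Values are in CPM, raw counts put on a common scaled library size, and a value written with ± is a mean with its SD over the 5 libraries of a depot unless an SE is named. A log2 fold change is intramuscular over subcutaneous fat, with its standard error (SE), from edgeR's quasi-likelihood test over all 12521 genes tested, and a gene was called at a Benjamini-Hochberg adjusted p under 0.05. Total counts over all genes of the table were between 9392739 and 14836808 in intramuscular and between 13776094 and 17685678 in subcutaneous libraries. Fat cell markers were present in every library: 18 mature adipocyte genes, among them ADIPOQ, PLIN1 and FABP4, summed to between 18871 and 73342 CPM in intramuscular and between 70112 and 102565 CPM in subcutaneous fat. Of a list of striated muscle genes, 13 had values and 58 were not analysed here. The 13 summed to 2577, 740.2, 1463, 465 and 557 CPM in intramuscular libraries 1 to 5 and to between 7.40 and 44.9 CPM in subcutaneous libraries. NMRK2, LRRC30, CACNG6 and ANO5, 4 of the 13, had no count in any subcutaneous library.

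The enzymes did not move one way. Pyruvate kinase (PKM) rose 7.97-fold in intramuscular fat, while enolase (ENO1) fell 2.03-fold and the liver-type phosphofructokinase (PFKL) fell 1.62-fold. HK1, HK2, PFKP, ALDOA and PGK1 did not pass the test. Among the 8 genes tested 1 was called higher and 2 lower. Over all genes 12.2% were called, 6.75% higher and 5.49% lower. Of the 8, 4 had a positive log2 fold change, and their median was 0.0017 against -0.038 over all genes tested. In 3 of the 8 (PKM, PGK1 and PFKL) the 5 values of one depot all lay beyond those of the other, as in 12.9% of all genes. Pairing the libraries by number called the same 3 members in the same directions, with 15.0% of all genes called. Without intramuscular libraries 1 and 3, which had the highest sums of striated muscle genes, PKM was the only member called, with 2.96% of all genes called. The intramuscular libraries kept in that fit still had muscle sums of 740.2, 465 and 557 CPM, against between 7.40 and 44.9 CPM in subcutaneous libraries. The authors' deposited table, from DESeq2, has an adjusted p under 0.05 for 5 members (PKM, ENO1, PFKL, ALDOA and PGK1) and for 20.0% of its genes.

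**Figure D1:**
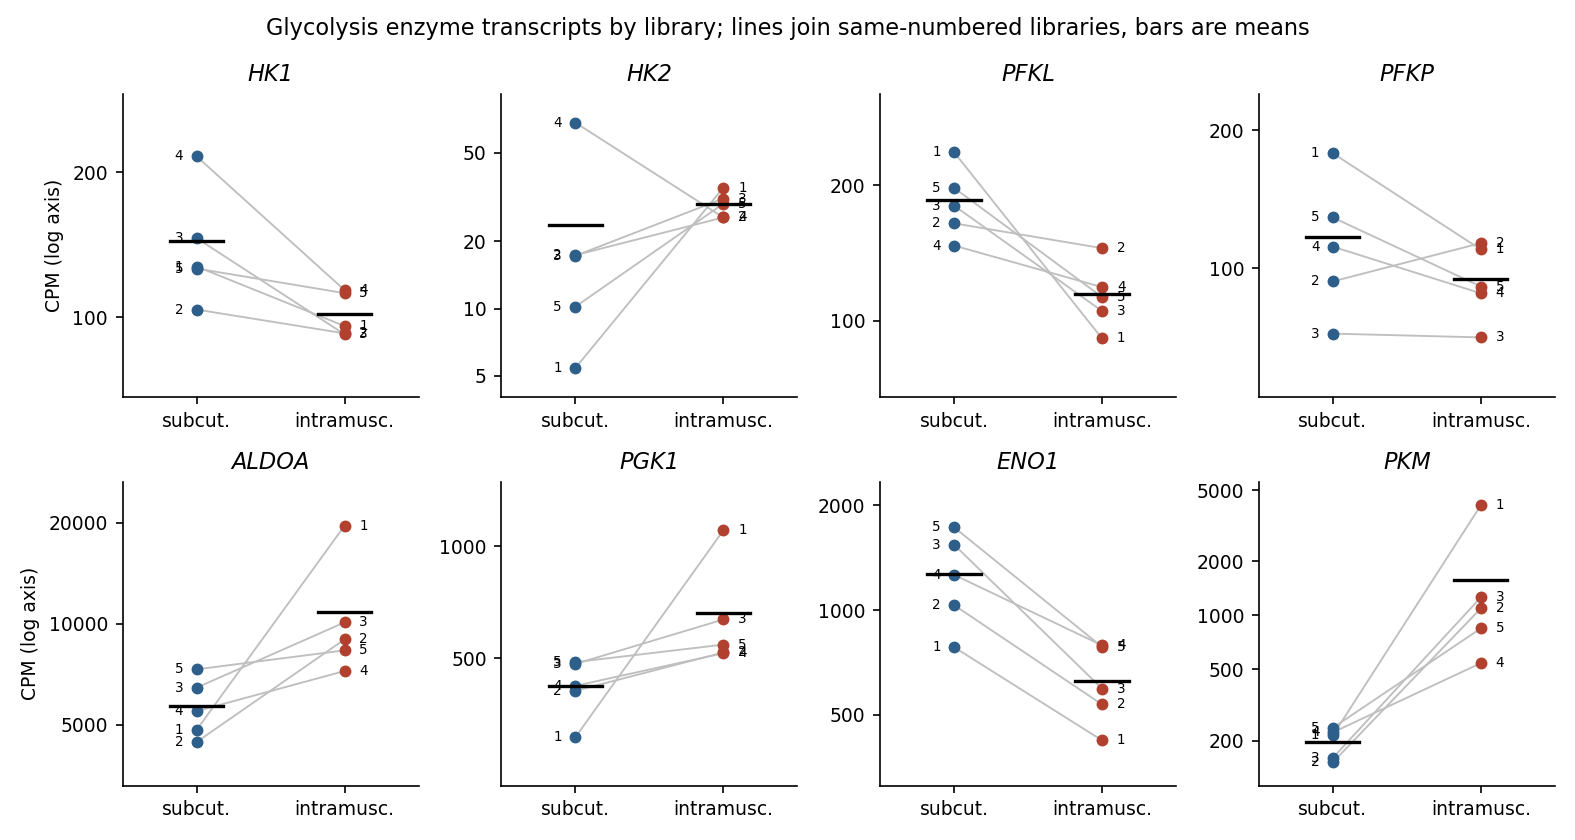
CPM (log axis) of the 8 glycolysis enzyme genes in each library, with subcutaneous libraries in blue, intramuscular libraries in red, library numbers beside the points, lines between same-numbered libraries and bars at the means. PKM lies between 541 and 4105 CPM in intramuscular fat and between 152 and 236 CPM in subcutaneous fat, whereas ENO1 is lower in intramuscular fat along all 5 lines.

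Glucose phosphorylation is served by HK1, the hexokinase of most tissues, and HK2, the insulin-responsive form of muscle and fat. HK1 (ENSBTAG00000012380, chromosome 28, 25694146 to 25769790) measured 95.9, 92.6, 92.2, 114 and 112 CPM in intramuscular libraries 1 to 5 and 127, 104, 146, 216 and 126 CPM in subcutaneous libraries 1 to 5. It was lower in intramuscular fat in 5 of 5 pairs, but the depots overlapped between 104 and 114 CPM. Its log2 fold change was -0.50 ± 0.19 (SE), with an edgeR adjusted p of 0.0962. HK2 (ENSBTAG00000013108, chromosome 11, 9743172 to 9810098) measured 34.8, 25.6, 31.1, 25.6 and 29.5 CPM in intramuscular libraries and 5.42, 17.4, 17.3, 68.1 and 10.2 CPM in subcutaneous libraries. The intramuscular values of HK2 were close together, with a highest value 1.36 times the lowest, whereas the subcutaneous ones spanned 12.6 times. Subcutaneous library 4 alone lay above every intramuscular library, and the other 4 lay below all of them. The log2 fold change of HK2 was 0.31 ± 0.51, with an edgeR adjusted p of 0.721. Without subcutaneous library 4 it was 1.22, with an edgeR adjusted p of 0.0291, and the subcutaneous mean was 12.6 ± 5.82 CPM (SD) in place of 23.7 ± 25.4 CPM. That library also had the highest HK1 value. HK1 overlaps the gene TACR2 on the other strand, which averaged 1.26 CPM.

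The ratio of HK2 to HK1, in which gene length and library scaling cancel between depots, had a higher mean in intramuscular fat. For each HK2 count there were 2.75, 3.61, 2.96, 4.44 and 3.80 HK1 counts in intramuscular libraries 1 to 5. There were 23.5, 5.97, 8.45, 3.16 and 12.4 HK1 counts for each HK2 count in subcutaneous libraries 1 to 5. The log2 ratio was -1.79 ± 0.28 in intramuscular and -3.09 ± 1.08 in subcutaneous fat (mean ± SD, n = 5, two-sided exact permutation p = 0.0317, 0.0476 adjusted over the 3 paralog ratios computed). The ratio was higher in intramuscular fat in 4 of 5 pairs, the exception being pair 4. The permutation over libraries, here and for the other ratios, treats them as independent and leaves out the pairing by heifer. By sign flips of the pairs the two-sided exact permutation p was 0.125, where 5 pairs allow no value under 0.0625. Without intramuscular libraries 1 to 5 in turn the adjusted exact permutation p was 0.0952, 0.0714, 0.0635, 0.0714 and 0.0714, and without subcutaneous libraries 3 and 5 it was 0.0595 and 0.0714. Of the other ratios planned, those with LDHA, ENO3 or PFKM were not analysed here.

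Phosphofructokinase, the main control point of the pathway, is built from liver (PFKL), platelet (PFKP) and muscle subunits, of which the muscle gene was not analysed here. PFKL (ENSBTAG00000010658, chromosome 1, 144308711 to 144335975) measured 91.3, 145, 105, 119 and 113 CPM in intramuscular and 237, 164, 180.0, 147 and 197 CPM in subcutaneous libraries 1 to 5. The highest intramuscular value lay just under the lowest subcutaneous one, so the depots did not overlap. Its log2 fold change was -0.69 ± 0.17 (edgeR adjusted p = 0.0226, lower in 5 of 5 pairs). The call was lost without intramuscular library 1 or 3, with edgeR adjusted p of 0.0513 and 0.0612, while the log2 fold change stayed between -0.79 and -0.59 with any single library left out. PFKP (ENSBTAG00000002683, chromosome 13, 45107041 to 45161102) measured 109.8, 113, 70.6, 88.1 and 91.2 CPM in intramuscular and 178, 93.5, 72.0, 111 and 129 CPM in subcutaneous libraries. Its depots overlapped over most of their range, and the log2 fold change was -0.30 ± 0.23 (edgeR adjusted p = 0.389). The end of PFKP overlaps the gene PITRM1 on the other strand, which averaged 89.6 CPM, close to PFKP itself, and the strand setting of the counting is not given in the sources used here. The log2 ratio of PFKP to PFKL was -0.28 ± 0.32 in intramuscular and -0.71 ± 0.38 in subcutaneous fat (SD, n = 5, two-sided exact permutation p = 0.0635 before and after adjustment over the 3 ratios), and was higher in intramuscular fat in 4 of 5 pairs. Its adjusted exact permutation p was 0.0476 without subcutaneous library 1 and likewise without library 4.

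Aldolase A (ALDOA, ENSBTAG00000012927, chromosome 25, 26212553 to 26218476) is the aldolase of muscle and of most other tissues. It took 2.23, 0.973, 1.09, 0.731 and 0.830% of the counts of intramuscular libraries 1 to 5, and between 0.439 and 0.620% in subcutaneous libraries. In intramuscular libraries 1 to 5 it measured 19599, 8973, 10086, 7219.6 and 8322 CPM. In subcutaneous libraries 1 to 5 it measured 4819.8, 4434, 6441, 5481 and 7305 CPM. Intramuscular library 1 stood far above the rest, and the depots overlapped only through intramuscular library 4 and subcutaneous library 5. ALDOA was higher in intramuscular fat in 5 of 5 pairs, by 4.07-, 2.02-, 1.57-, 1.32- and 1.14-fold. The log2 fold change was 0.93 ± 0.30, with an edgeR adjusted p of 0.0579. The intramuscular mean was 10840.0 ± 5005 CPM, and 8650.3 ± 1200.1 CPM without library 1 (SD). By DESeq2 the adjusted p of ALDOA was 0.00725, and with libraries scaled to their totals alone it was 0.0273 by edgeR.

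ALDOC, the brain-type aldolase, measured 16.3 ± 3.85 against 25.8 ± 10.0 CPM (SD, n = 5; edgeR adjusted p = 0.143). The log2 ratio of ALDOA to ALDOC was 9.30 ± 0.91 in intramuscular and 7.86 ± 0.47 in subcutaneous fat (two-sided exact permutation p = 0.0159, 0.0476 adjusted over the 3 ratios), and it was higher in 5 of 5 pairs. By sign flips of the pairs the two-sided exact permutation p of that ratio was 0.0625, the smallest that 5 pairs allow, and 0.125 after adjustment. The adjusted exact permutation p rose to 0.0714 without intramuscular library 1, 2 or 5 or subcutaneous library 5, to 0.0635 without intramuscular library 3 and to 0.0595 without subcutaneous library 3.

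**Figure D2:**
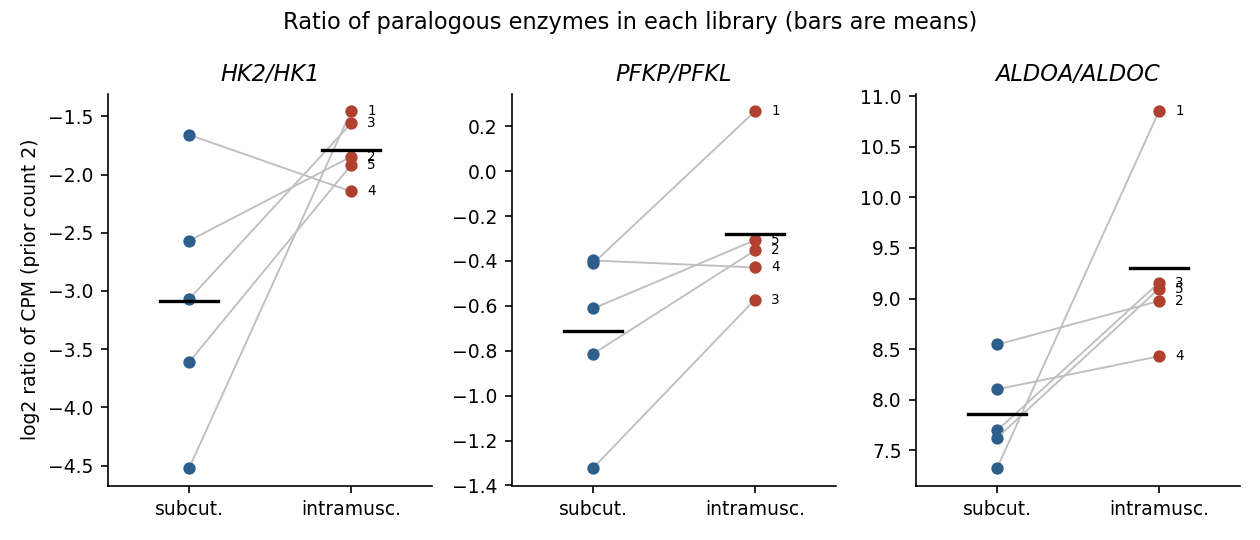
Log2 ratio of CPM (prior count of 2) of HK2 to HK1, PFKP to PFKL and ALDOA to ALDOC in each library, subcutaneous in blue and intramuscular in red, with lines between same-numbered libraries and bars at the means. The mean HK2 to HK1 ratio is -3.09 in subcutaneous and -1.79 in intramuscular fat, and the subcutaneous points are the more scattered.

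The ATP-making step after aldolase is run by phosphoglycerate kinase 1 (PGK1, ENSBTAG00000000894, chromosome X, 74244893 to 74267571). It measured 1103, 517, 635, 515 and 543 CPM in intramuscular and 306, 408, 482, 421 and 487 CPM in subcutaneous libraries 1 to 5. All intramuscular values lay above all subcutaneous ones, with intramuscular library 1 well above the other 4. The pair folds were 3.61, 1.27, 1.32, 1.22 and 1.11. The log2 fold change was 0.66 ± 0.24, with an edgeR adjusted p of 0.0860 (0.0383 by DESeq2 and 0.0419 by edgeR with libraries scaled to their totals alone). Without intramuscular library 1 the intramuscular mean was 553 ± 56.3 CPM against 421 ± 73.5 CPM in subcutaneous fat (SD), a log2 fold change of 0.40. PGK1 overlaps the gene TAF9B on the other strand, which averaged 4.47 CPM.

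Enolase 1 (ENO1, ENSBTAG00000013411, chromosome 16, 44553028 to 44566771), the widely used enolase of non-muscle cells, was lower in intramuscular fat. It measured 422, 535, 594, 792 and 784 CPM in intramuscular and 782, 1034, 1542, 1263 and 1731 CPM in subcutaneous libraries 1 to 5. The depots met only where intramuscular libraries 4 and 5 reached the lowest subcutaneous library, library 1. ENO1 was lower in 5 of 5 pairs, with intramuscular values of 0.539, 0.518, 0.385, 0.627 and 0.453 times the subcutaneous ones. The log2 fold change was -1.02 ± 0.25 (edgeR adjusted p = 0.0217). The adjusted p was 0.0538, 0.0584 and 0.0521 without intramuscular library 2 or 3 or subcutaneous library 3, with log2 fold changes of -0.99, -1.02 and -0.94. The muscle enolase gene ENO3 was not analysed here. The ENO1 values stood in nearly the order of the summed adipocyte genes, which measured 18871, 41403, 49632, 72906 and 73342 CPM in intramuscular libraries 1 to 5. They measured 70112, 86550.1, 96583, 100686 and 102565 CPM in subcutaneous libraries 1 to 5. Intramuscular libraries 4 and 5 and subcutaneous library 1 had close values of both. The part of the fat cell share in the ENO1 difference was not tested.

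Pyruvate kinase M (PKM, ENSBTAG00000001601, chromosome 10, 19137899 to 19165177), the last enzyme on the way to pyruvate, showed the largest depot difference of the 8 genes. It measured 4105, 1093, 1259, 541 and 845 CPM in intramuscular and 214, 152, 160.2, 222 and 236 CPM in subcutaneous libraries 1 to 5. The lowest intramuscular library lay above the highest subcutaneous one. The gene is spliced into an M1 form, used in adult muscle, and an M2 form of many other cells, and counts per gene do not tell these apart. PKM rose in all 5 pairs, by 19.2-, 7.21-, 7.86-, 2.43- and 3.58-fold. The log2 fold change was 2.99 ± 0.48 (edgeR adjusted p = 0.00200), and the gene ranked 187 of 12521 by p. With any single library left out the call was kept, with edgeR adjusted p between 0.000271 and 0.00812. Intramuscular library 1 set much of the size: without it the fold was 4.76, and the intramuscular mean was 935 ± 313 CPM in place of 1569 ± 1444 CPM (SD). Without libraries 1 and 3 together the fold was 4.20, with an edgeR adjusted p of 0.00129.

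Within intramuscular fat the order of PKM over the libraries (1, 3, 2, 5, 4 from high to low) was also that of ALDOA and of the summed striated muscle genes. In subcutaneous fat, where those muscle genes summed to between 7.40 and 44.9 CPM, PKM was lowest in libraries 2 and 3, which had the highest muscle sums. Of the muscle list 12 of the 13 genes with values were called higher and 0 lower in intramuscular fat, and its defining myofibre genes, such as ACTA1, MYH1 and CKM, were not analysed here. That count is a description and no test. NMRK2, LRRC30, CACNG6 and ANO5 had no subcutaneous count and so passed the filter on low counts only through intramuscular libraries. The list was also chosen with earlier results of these data known. Markers of other cell types moved too, where 6.75% of all genes were called higher and 5.49% lower. Among 18 mature adipocyte genes 0 were higher and 2 (FABP4 and CFD) lower, and 0 were higher and 6 lower with the libraries paired. Their median log2 fold change was -0.81, with 17 negative and 1 positive. Of 9 Schwann cell and nerve genes reported 6 were higher, among them MBP of the myelin sheath, and 1 (S100B) lower, with a median log2 fold change of 2.96. Without intramuscular libraries 1 and 3, where 2.96% of all genes were called, 5 of the Schwann cell and nerve genes were higher. That list summed to between 472 and 727 CPM in intramuscular and between 691 and 1506 CPM in subcutaneous fat. NEFM, among the 6 called higher, had no count in any subcutaneous library. It too passed the filter on low counts only through intramuscular libraries. Of 7 pericyte and vascular smooth muscle genes 3 were higher and 0 lower, and the list summed to between 2099 and 2676 against between 1702 and 2515 CPM. There were 0 higher and 4 lower of 12 macrophage genes (197 to 466 against 207 to 1074 CPM), of 13 endothelial genes (2067 to 2632 against 2576 to 4646 CPM) and of 13 fibro-adipogenic progenitor genes (12407 to 13839 against 10541 to 23202 CPM). Genes of red blood cells (2 with values) and of T and B cells (6 with values) gave 0 calls by edgeR, 0 genes at an unadjusted edgeR p under 0.05, and 0 calls by DESeq2 and limma voom. The part of RNA from muscle or from these other cells in the enzyme values was not tested.

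**Figure D3:**
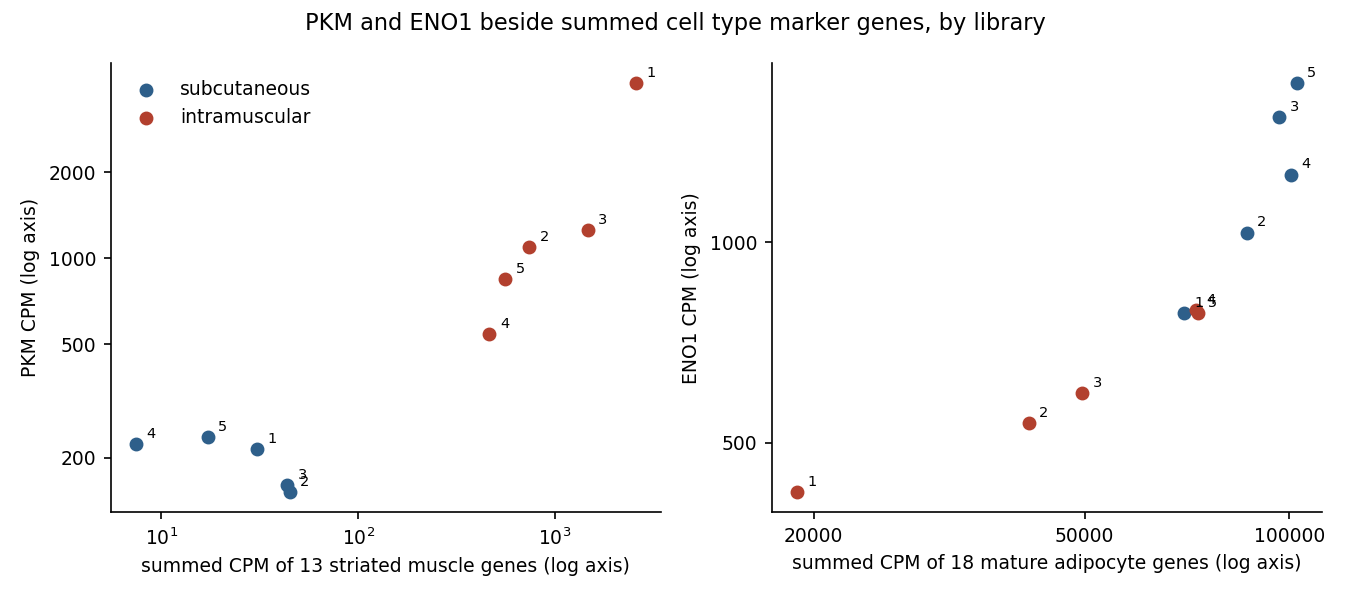
Left, PKM in CPM against the summed CPM of 13 striated muscle genes, and right, ENO1 in CPM against the summed CPM of 18 mature adipocyte genes, on log axes, with each point a library numbered within its depot (subcutaneous blue, intramuscular red). Intramuscular library 1 has the highest PKM (4105 CPM) and muscle sum (2577 CPM) and the lowest ENO1 (422 CPM) and adipocyte sum (18871 CPM).

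Per gene length the order of the levels of the 8 genes differed between depots. How reads shared with near-identical gene copies were counted is not given in the sources used here, which limits comparisons between genes. In subcutaneous fat ALDOA stood highest at 2816 ± 582 CPM per kilobase (SD, n = 5), which is rank 11 among all 12674 genes. ENO1 followed at 641 ± 192 and PGK1 at 217 ± 37.9 CPM per kilobase. PFKL and PKM came next at 64.5 ± 12.0 and 63.7 ± 12.4 CPM per kilobase, which did not differ beyond their spread. PFKP and HK1, at 30.1 ± 10.4 and 24.2 ± 7.22 CPM per kilobase, also overlapped, and HK2 was lowest at 6.12 ± 6.56 CPM per kilobase. In intramuscular fat ALDOA (5358 ± 2474 CPM per kilobase) ranked 2 among all genes. PKM, at 508 ± 467 CPM per kilobase, stood beside PGK1 (342 ± 129.7) and ENO1 (316 ± 81.1), and these 3 overlapped. PFKL, PFKP, HK1 and HK2 followed in the same order as in subcutaneous fat, at 39.9 ± 6.90, 24.4 ± 4.48, 17.1 ± 1.82 and 7.59 ± 1.01 CPM per kilobase. The level of PKM per length thus lay near that of PFKL in the subcutaneous and near that of PGK1 and ENO1 in the intramuscular depot.

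**Figure D4:**
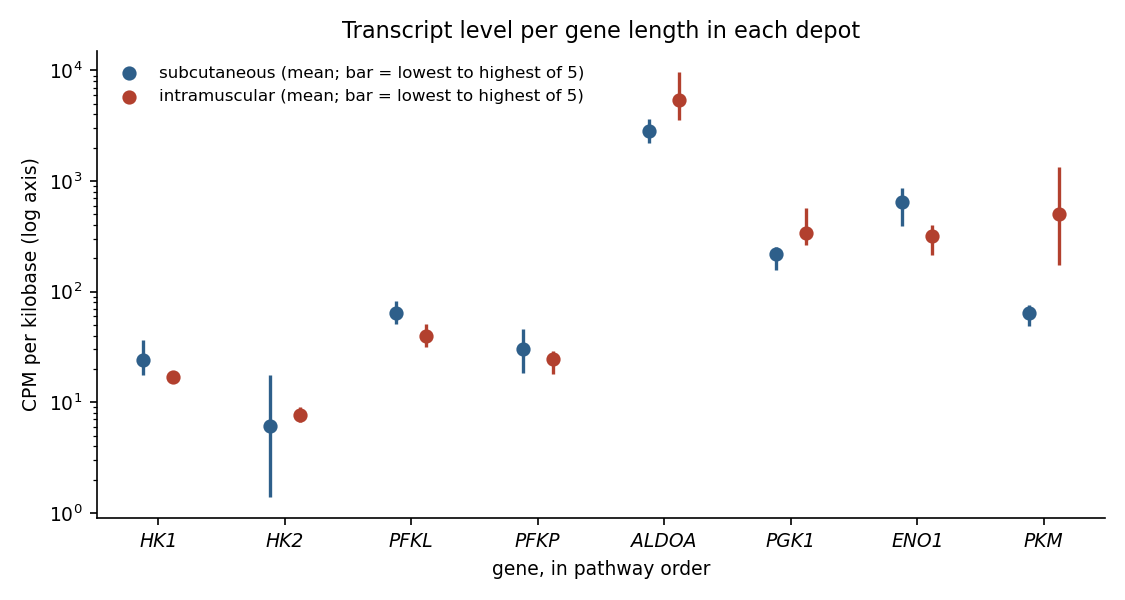
Mean CPM per kilobase of gene length (log axis) of the 8 genes in pathway order, subcutaneous in blue and intramuscular in red, with bars from the lowest to the highest of 5 libraries. PKM stands at 63.7 in subcutaneous and 508 CPM per kilobase in intramuscular fat, and the HK2 bar is widest in subcutaneous fat.

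The remaining genes of glucose use were described through 7 fixed lists with 101 genes reported, of which 10 were called higher and 2 lower in intramuscular fat. That is 11.9%, close to the 12.2% called over all genes. Without intramuscular libraries 1 and 3 together HIF1A, MLXIP and PCK2 were the named ones still called. Of 15 other glycolytic enzyme genes 0 were higher and 1 lower, with a median log2 fold change of -0.41 (1 higher and 3 lower at an unadjusted edgeR p under 0.05). HKDC1, PFKM, PGK2, PGAM2, PGAM4 and ENO3 of that list were not analysed here and enter none of its counts. LDHB, the lactate dehydrogenase subunit favoured in oxidative tissue, fell in 5 of 5 pairs. It measured 870.4, 1690.5, 1707, 2565 and 2128 CPM in intramuscular and 3031, 3052, 4959, 3049 and 4917 CPM in subcutaneous libraries 1 to 5, with no overlap. Its log2 fold change was -1.08 ± 0.29 (edgeR adjusted p = 0.0299). The LDHB call was lost without intramuscular library 2 or 3 or subcutaneous library 3 or 5, with edgeR adjusted p of 0.0632, 0.0726, 0.0702 and 0.0582. PGAM1, the mutase between PGK1 and ENO1 in the pathway, measured 465 ± 168 against 734 ± 123 CPM (edgeR adjusted p = 0.105, and 0.0411 with the libraries paired). BPGM, which makes the red-cell effector bisphosphoglycerate, measured 6.46 ± 5.42 against 1.61 ± 0.995 CPM (edgeR adjusted p = 0.0546, and 0.0379 without intramuscular library 4). GPI, the isomerase between hexokinase and phosphofructokinase, stood at 356 and 409 CPM per kilobase in intramuscular and subcutaneous fat (edgeR adjusted p = 0.578). TPI1, whose protein is an abundant enzyme of the pathway, was counted at only 2.08 ± 0.657 and 1.56 ± 1.39 CPM. GPI, TPI1 and ALDOC were named after their values were seen. Several glycolytic genes have near-identical processed copies in mammalian genomes, and how reads shared with such copies were counted is not given in the sources used here.

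Transport genes gave no call, with 0 higher and 0 lower of 11 by edgeR at an adjusted p under 0.05. At an unadjusted edgeR p under 0.05 there were 1 higher and 2 lower, DESeq2 called 0 higher and 2 lower, and limma voom called 0 in either direction. The carrier genes SLC2A5, SLC5A1 and SLC16A3 were not analysed here. SLC16A7, a carrier of pyruvate and lactate, measured 152 ± 81.5 against 337 ± 120.4 CPM and was lower in 5 of 5 pairs (edgeR adjusted p = 0.0659, and 0.00387 with the libraries paired). Its edgeR adjusted p was 0.0330 and 0.0406 without intramuscular library 4 or subcutaneous library 1. BSG, a chaperone of some lactate carriers, measured 2374 ± 736 against 4239.9 ± 1223 CPM (edgeR adjusted p = 0.0609, and 0.0463 without intramuscular library 4). The glucose carrier gene SLC2A12 measured 3.34 ± 2.90 against 1.23 ± 0.614 CPM (edgeR adjusted p = 0.149).

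Among 23 genes that switch glycolysis or admit pyruvate to the mitochondrion, 1 was higher and 1 lower. PDP1, the phosphatase that turns pyruvate dehydrogenase on, rose from 14.6 ± 5.00 to 37.7 ± 12.9 CPM (log2 fold change 1.36 ± 0.28, edgeR adjusted p = 0.00925). Its depots did not overlap, and without intramuscular libraries 1 and 3 together its edgeR adjusted p was 0.0713. PCK2, the mitochondrial enzyme that makes phosphoenolpyruvate, fell from 1101 ± 363 to 424 ± 129 CPM (-1.38 ± 0.28, edgeR adjusted p = 0.00902), also without overlap. FBP1, which runs the phosphofructokinase step backwards, measured 45.3 ± 19.1 against 97.6 ± 46.2 CPM (edgeR adjusted p = 0.0605). With the libraries paired 2 of the 23 were higher and 1 lower. PFKFB4, named after its values were seen, measured 117 ± 33.9 against 62.0 ± 33.2 CPM (edgeR adjusted p = 0.0975, and 0.0158 with the libraries paired). Of the 14 glycogen genes reported 0 were higher and 0 lower by edgeR. At an unadjusted edgeR p under 0.05 there were 4 higher and 1 lower, DESeq2 called 2 higher and 0 lower, and limma voom called 0. The glycogen genes GYS1, PGM1, PYGM, PHKA1, PHKB, PPP1R3C and EPM2A were not analysed here. UGP2, which makes the UDP-glucose used for glycogen, measured 184.9 ± 39.4 against 137 ± 13.6 CPM (edgeR adjusted p = 0.101). STBD1, a glycogen-binding protein gene, measured 89.3 ± 51.0 against 40.0 ± 25.6 CPM (edgeR adjusted p = 0.0773, and 0.0147 without subcutaneous library 4). Of 5 genes of glycerol phosphate supply, 1 was higher and 0 lower. GPD2, the mitochondrial glycerol phosphate dehydrogenase, rose from 1.56 ± 0.661 to 5.99 ± 2.90 CPM (1.93 ± 0.45, edgeR adjusted p = 0.0167, and 0.0609 without intramuscular library 3). GPD1, its cytosolic partner, measured 851 ± 189 against 1184 ± 420.3 CPM (edgeR adjusted p = 0.216), and the phosphatase gene PGP measured 94.2 ± 38.7 against 61.7 ± 28.7 CPM (edgeR adjusted p = 0.240).

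The hypoxia-inducible factor HIF-1 is known to switch on many glycolytic genes. Of 21 genes of oxygen sensing and HIF targets outside glycolysis, 5 were higher and 0 lower, with a median log2 fold change of 0.17 (7 higher and 2 lower at an unadjusted edgeR p under 0.05). The shares over all genes were 6.75% higher and 5.49% lower. With the libraries paired 6 of the 21 were higher and 1 lower. The HIF-1 subunit gene HIF1A measured 112, 169, 170.1, 224 and 206 CPM in intramuscular and 87.6, 94.4, 74.7, 139 and 120.4 CPM in subcutaneous libraries (0.77 ± 0.22, edgeR adjusted p = 0.0371, higher in 5 of 5 pairs). The HIF1A call was kept in 3 of the 10 fits with a library left out (without intramuscular library 1 or subcutaneous library 4 or 5), and its edgeR adjusted p reached 0.0839 without subcutaneous library 3. EGLN1 and EGLN3, prolyl hydroxylases that mark HIF for breakdown, rose from 132 ± 11.6 to 231 ± 49.7 CPM and from 24.8 ± 4.91 to 62.8 ± 24.3 CPM (edgeR adjusted p = 0.00887 and 0.00619). Both were highest in intramuscular libraries 1 and 3, without which their edgeR adjusted p were 0.0697 and 0.0549. MXI1, a repressor of MYC action, rose from 22.6 ± 7.55 to 43.5 ± 3.78 CPM (edgeR adjusted p = 0.0184). The asparagine hydroxylase HIF1AN measured 93.5 ± 47.6 against 43.5 ± 13.8 CPM (edgeR adjusted p = 0.0333), a call kept in 4 of the 10 fits with a library left out and lost without intramuscular library 1, 2 or 3 or subcutaneous library 2, 3 or 5, up to an adjusted p of 0.0790. Other targets did not pass the test, among them VEGFA (182 ± 26.2 against 164 ± 40.2 CPM, edgeR adjusted p = 0.617) and ADM (385 ± 116 against 578 ± 137 CPM, edgeR adjusted p = 0.125, and 0.0486 with the libraries paired). DDIT4 did not pass either (404 ± 85.9 against 246 ± 85.8 CPM, edgeR adjusted p = 0.0742, and 0.0174 with the libraries paired). VEGFA, ADM and DDIT4 were named after their values were seen.

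Of 12 genes of factors known to act on glycolytic transcription, 3 were higher and 0 lower, with 6.75% of all genes called higher and 5.49% lower. With the libraries paired 3 were higher and 1 (MLXIPL) lower. MLXIPL, named after its values were seen, measured 146 ± 72.1 against 245 ± 110 CPM and was higher in intramuscular fat in 0 of 5 pairs. Its edgeR adjusted p was 0.187, and 0.0320 with the libraries paired. MLXIP, a glucose-sensing partner of MLX, rose from 98.7 ± 23.4 to 366 ± 173 CPM (1.89 ± 0.30, edgeR adjusted p = 0.00185). It measured 641, 336, 407, 230.0 and 215 CPM in intramuscular libraries and between 68.0 and 119.5 CPM in subcutaneous ones, without overlap. SP1, a general promoter factor, rose from 17.5 ± 5.01 to 31.5 ± 4.78 CPM (edgeR adjusted p = 0.0232). PPARGC1A, a coactivator of mitochondrial genes, rose from 3.26 ± 1.17 to 6.96 ± 1.68 CPM (edgeR adjusted p = 0.0498). The SP1 call was lost without intramuscular library 3 or 5 or subcutaneous library 3, with edgeR adjusted p of 0.0510, 0.0562 and 0.0536. The PPARGC1A call was kept in 1 of the 10 fits with a library left out, that without subcutaneous library 1, and its edgeR adjusted p reached 0.111 without intramuscular library 2.

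**Figure D5:**
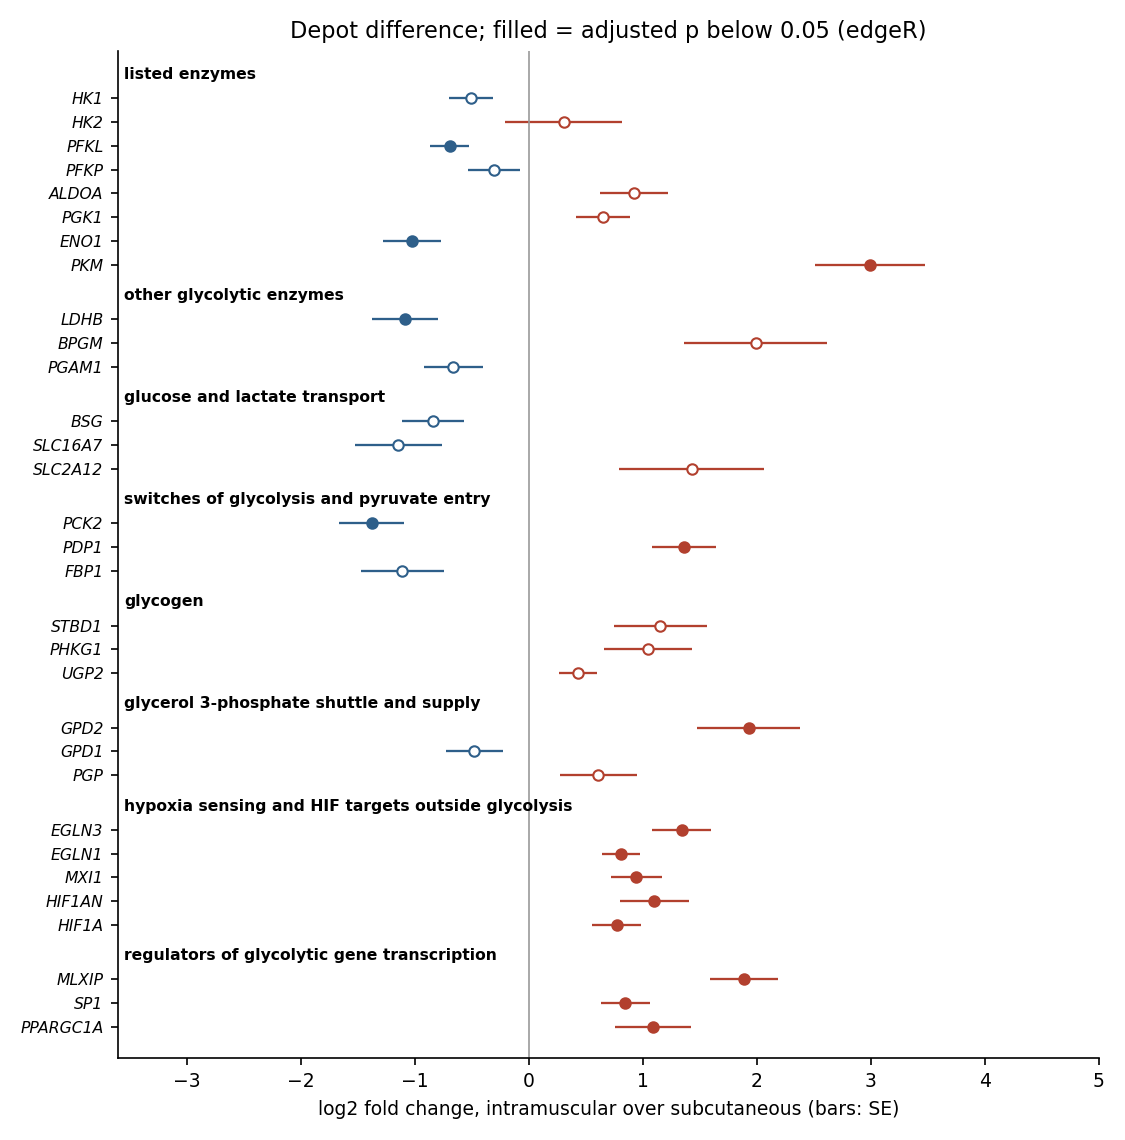
Log2 fold change of intramuscular over subcutaneous fat with its SE for the 8 listed enzyme genes and the 23 pathway genes named by rule, grouped by list, filled where the edgeR adjusted p is below 0.05, red above and blue below 0. PKM lies at 2.99 while ENO1 and PFKL lie at -1.02 and -0.69.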

How the data were processed

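Reads were handled with DESeq2 1.42.0, featureCounts 2.0.2, STAR 2.7.11a and Trimmomatic 0.39, all named without order in the submitters' processing notes. The genome build is not given in the sources used here, and coordinates are those of the deposited table. The authors deposited raw counts per gene and library. They also deposited a mean count per depot and a size-factor scaled base mean (signal), a log2 fold change with its SE, a test statistic (score), and p-values. CPM used edgeR 4.0.16 TMM-scaled library sizes in R 4.3.3, and per-length levels the deposited gene length. The test was edgeR's quasi-likelihood test (two-sided, filterByExpr, no pairing), which kept 12521 genes. SE is the log2 fold change divided by the root of F. Paralog ratios used log2 CPM with a prior count of 2. Alternatives were DESeq2 1.42.0, limma 3.58.1 voom, other scalings, no filter, pairing and libraries left out. On simulated counts 33.0% of 2-fold and 88.0% of 4-fold changes were called among 12386 genes, and 2.42% of calls were false. That simulation changed 200 genes and drew the libraries as independent, so its rates need not hold for these data. The members and lists were chosen with earlier results of these data known. Another 2 listed genes are not reported here and enter no list count. Named genes are the members, up to 8 called genes per list and otherwise the 3 of smallest p, and the 3 genes nearest in pattern to each called member. The design text says both depots came from the same heifers, and once depot means were removed the libraries of pairs 1 to 5 correlated over genes at 0.102, 0.181, 0.176, 0.161 and 0.237, with 10 of 10 libraries closest to their own number.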

Additional observations from a re-analysis of the deposited data

Results flagged for a closer look

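A library far from the other 4 of its depot (gap over range above 0.71) was found in 8 of the 68 groups of 5 values examined. About 1 in 20 groups of independent, normally spread values would pass that cut. These groups share their libraries, and many of the genes were picked by p, so the count cannot be set against that rate. Intramuscular library 1 was the highest for ALDOA (19599 CPM against 7219.6 to 10086 in the other 4), PGK1 (1103 CPM against 515 to 635) and PKM (4105 CPM against 541 to 1259). It was also the highest for the glycogen-binding gene STBD1 (178 CPM against 59.7 to 87.0), the phosphorylase kinase gene PHKG1 (81.3 CPM against 19.6 to 33.0) and HIF1AN (176 CPM against 60.9 to 91.8). The same library had the highest sum of striated muscle genes, 2577 CPM, and the lowest sum of adipocyte genes, 18871 CPM. The part of these in its values was not tested. Subcutaneous library 4 was the highest for HK2 (68.1 CPM against 5.42 to 17.4 in the other 4) and for STBD1 (84.4 CPM against 22.9 to 38.9). Without subcutaneous library 4 the log2 fold change of STBD1 was 1.62 in place of 1.16, with an edgeR adjusted p of 0.0147 in place of 0.0773. PHKG1 had an edgeR adjusted p of 0.0917 with all libraries.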

How the results depend on the processing

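None of the 8 members, 3 ratios and 23 pathway genes named by rule changed direction in the alternatives run. The other genes named were not followed through all of them. The replicate block changed no call of a member, and gave log2 differences of 2.63 for PKM, -1.01 for ENO1 and -0.69 for PFKL. Paired sign flips could give no call for HK2/HK1 (1.30) or ALDOA/ALDOC (1.44), since 5 pairs allow no two-sided p under 0.0625. With total-count scaling, which moved the median of all genes by 0.17 and the share of higher calls from 55.1% to 77.7%, PFKL (-0.52) lost its call, ALDOA (1.14) and PGK1 (0.86) gained one, 3 members were higher and 1 lower, and 330 of all genes were lower. By DESeq2 ALDOA (0.94) and PGK1 (0.67) gained a call, 3 members were higher, 16 other pathway genes were higher and 6 lower, and 1369 and 1171 of all genes. With the block 6 other pathway genes were lower. Without intramuscular libraries 1 and 3 together PFKL (-0.56), ENO1 (-0.86), HK2/HK1 (1.11) and ALDOA/ALDOC (0.97) lost their calls, 0 members were lower, 2 other pathway genes were higher and 1 lower, and 306 and 67 of all genes. With 1 library left out the log2 differences ran from 0.052 to 1.22 for HK2, -0.79 to -0.59 for PFKL and -1.15 to -0.89 for ENO1, and from 0.94 to 1.66 for HK2/HK1, 0.28 to 0.51 for PFKP/PFKL and 1.05 to 1.66 for ALDOA/ALDOC. Counts ran from 1 to 2 members higher and 0 to 2 lower, 5 to 11 and 1 to 4 other pathway genes, and 494 to 1008 and 263 to 887 of all genes. The lowest count of a member was 84, for HK2 in subcutaneous library 1, and the effect of depth was not tested. The p-values measure the spread between 5 heifers' tissue pieces per depot.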

Other observations

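The genes whose centred log2 CPM lay nearest to a called enzyme over the 10 libraries, by the root mean square difference, differed by enzyme. For ENO1 they were the glutathione transferase gene MGST3 (0.13 log2 units) and the cytochrome oxidase subunit genes COX8A (0.13) and COX6A1 (0.14), with log2 fold changes of -1.18, -0.92 and -0.99. For PFKL they were the lysosomal sulfatase gene SGSH (0.13), the zinc transporter gene SLC39A1 (0.15) and the homeobox gene SIX5 (0.15). For PKM the nearest genes were farther away, with RAMP1, a receptor-modifying protein gene, at 0.39, the endocytosis gene PACSIN3 at 0.41 and the semaphorin gene SEMA4D at 0.42. RAMP1 measured 21.2 ± 16.9 against 4.01 ± 1.98 CPM, PACSIN3 149 ± 129.2 against 25.4 ± 4.31 CPM and SEMA4D 155 ± 116.0 against 17.3 ± 3.52 CPM (SD, n = 5). These genes were chosen for their likeness, so their depot differences are a description.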
